A study of Mus musculus with 3 samples.

Results

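The CXC chemokine cluster of mouse chromosome 5 was described here through 7 genes, Pf4, Ppbp, Cxcl5, Cxcl15, Cxcl1, Cxcl2 and Cxcl3, out of 22367 protein-coding genes of the mm9 annotation. They were chosen by name, for their place in the cluster, with earlier results of these data known. The data were 3 ChIP-seq libraries of mature megakaryocytes (MK), the large marrow and fetal liver cells that release platelets. One library was precipitated with an antibody to FLI1, one with an antibody to RUNX1, and one was input, chromatin sequenced without precipitation. All 3 came from wild-type CD1 mice, from fetal liver of embryonic day 15 by the labels (the study's methods give another day), grown with thrombopoietin for 5 days and purified on gradients of albumin. In the study's methods, cells of other blood lineages were depleted with antibodies before the gradients. By the labels, precipitated or input DNA was pooled from at least 3 replicates for each library, so each antibody had 1 library and the spread between cultures could not be measured. The methods and the labels also differ on the library kit, and the methods place the input beside a digestion with micrococcal nuclease while the factor chromatin was sheared by sonication, so that in a ratio to input the antibody and the fragmentation cannot be told apart.

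CXC chemokines are small secreted proteins that steer leukocytes through G protein-coupled receptors. Pf4 (platelet factor 4) binds heparin, and Ppbp (pro-platelet basic protein) is cut into neutrophil-attracting peptides. Both are made by MK, stored in alpha granules and released by activated platelets. Cxcl1, Cxcl2, Cxcl3 and Cxcl5 attract neutrophils and are known as genes that inflammatory cues induce in many cells. Cxcl15 is known from lung epithelium. Whether MK also make any of these other chemokines was not measured here. FLI1 is a factor of the ETS family, which binds words around GGAA, and RUNX1 binds words such as TGTGGT, and both are needed for normal MK maturation.

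The FLI1 library held 62946422 reads after chromosome M was left out, the RUNX1 library 3973856 and the input 21745220. The RUNX1 file holds far fewer reads than the tag number listed with the study for this library, and whether it is the whole library is not known. The RUNX1 counts below, zeros included, therefore describe this file and do not show that RUNX1 was absent from a place. ChIP reads were 50 bases long and input reads 34. Read numbers are therefore given as counted, and folds are ratios of read counts scaled to library depth, with an exact 95% interval, which covers counting error only and takes every read as independent.

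FLI1 reads piled up at 4 places of the cluster, counted in 467 bins of 400 bp from 20 kb before Cxcl5 to 20 kb after Cxcl2. A bin was called when it held at least 6 reads and at least 4 times the highest of the genome-wide rate, its own scaled input and the scaled input of the 5 kb around it. By this rule 6 of 467 bins (1.28%) were called for FLI1, beside 0.302% of 6396323 bins of the genome. For RUNX1 0 of 467 bins were called, beside 0.0875% of the genome's bins, and no bin held more than 5 RUNX1 reads. The minimum of 6 reads set this 0, since 10 bins with 3 to 5 RUNX1 reads were at least 4 times their expectation, and at the genome-wide RUNX1 rate 6 reads are 9.66 times the expectation. The 6 bins held 12.2% of the cluster's FLI1 reads and 1.50% of its input reads.

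**Figure D1:**
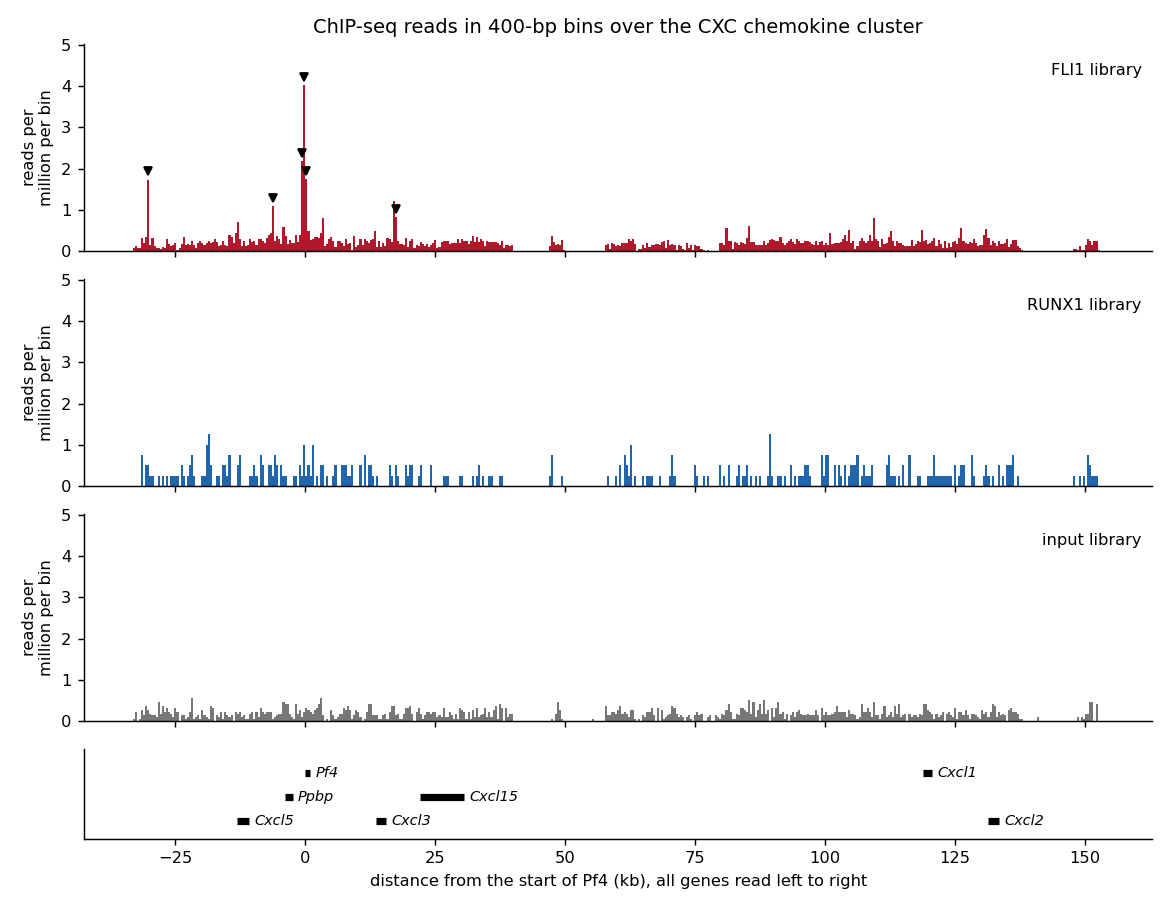
RPM (reads scaled to library depth) in each 400-bp bin against the distance from the start of Pf4 in kb, for the FLI1, RUNX1 and input libraries on 1 scale, with the 7 genes as black bars. Triangles mark the 6 called FLI1 bins, 3 of them side by side at Pf4, where the highest bin held 253 FLI1 reads.

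The sequences below are the mm9 reference on the plus strand, 50 bases to either side of the base covered by most FLI1 reads, since they show which words lie under each FLI1 maximum. Capitals mark an ETS word (CAGGAAA or CAGGAAG, and likewise CCGGAAA or CCGGAAG), a RUNX word (TGTGGT or TGCGGT), the NF-E2 and AP-1 word TGACTCA, or the NF-kB word GGAATTTCC, each searched on both strands. The ETS words and the NF-kB word all contain GGAA. The NF-kB word was added after the promoter sequences had been seen. The stretches at the starts of Pf4 and Cxcl5 were cut short after 25 exon bases.
Upstream of Cxcl5, chr5:91171229-91171329: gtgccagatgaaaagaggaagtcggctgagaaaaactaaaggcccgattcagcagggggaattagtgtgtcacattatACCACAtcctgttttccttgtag
Upstream of Ppbp, chr5:91195406-91195506: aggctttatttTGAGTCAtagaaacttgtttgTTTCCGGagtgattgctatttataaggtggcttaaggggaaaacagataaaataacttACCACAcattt
Upstream of Pf4, chr5:91201051-91201151: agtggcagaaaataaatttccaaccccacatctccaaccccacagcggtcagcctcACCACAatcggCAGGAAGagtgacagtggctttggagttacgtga
Start of Pf4, chr5:91201407-91201485: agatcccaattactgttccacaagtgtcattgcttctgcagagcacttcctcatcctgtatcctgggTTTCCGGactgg
Downstream of Cxcl3, chr5:91218866-91218966: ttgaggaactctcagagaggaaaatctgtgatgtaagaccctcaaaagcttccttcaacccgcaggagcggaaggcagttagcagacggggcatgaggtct
Start of Cxcl5, chr5:91188273-91188349: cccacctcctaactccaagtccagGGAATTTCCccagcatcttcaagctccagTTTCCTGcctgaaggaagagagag

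Pf4 (ENSMUSG00000029373, chr5:91201461-91202407, plus strand) had the most FLI1 reads of the 7 genes. Within 2 kb of its start lay 652 FLI1 reads, 16 RUNX1 reads and 53 input reads. FLI1 was 4.25-fold over input (3.21 to 5.73), a fold that 2.65% of the 21574 genes with at least 5 input reads reached. Within 1 kb of the start it was 7.35-fold, and with RUNX1 as the reference in place of input 2.57-fold. RUNX1 was 1.65-fold over input (0.881 to 2.93), and its interval included 1. The ratio of FLI1 to RUNX1 reads at equal depth had an interval of 1.57 to 4.53 at Pf4. For each of the other 6 genes this interval included 1.

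The FLI1 reads at Pf4 formed a pair of maxima. In steps of 100 bp, the bases from 600 to 300 before the start held 30, 54 and 69 reads, the next steps held 18 and 13, and the steps from 100 before to 200 after the start held 88, 135 and 44. The 3 called bins there spanned 1200 bp and held 500 FLI1, 6 RUNX1 and 14 input reads. The bin at the start held 253 FLI1 reads, 17.3 times its expectation, a number reached by 406 bins of the genome (0.00635%). Another bin, centred 3464 bp after the Pf4 start and past the gene's end, held 50 FLI1 and 3 input reads. It was 3.93 times its expectation, just under the limit of 4, and was not called. It was called when repeated input positions were kept. Of its 50-base sequences 72.75% occurred once in the genome.

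Most reads of the plus strand lay to the left of the main maximum and most reads of the minus strand to the right, a pattern that taking the maximum from extended reads favours. The main maximum was 4 bp before the start, with 75 plus-strand reads in the 150 bp to its left and 39 to its right, and 13 minus-strand reads to its left and 118 to its right. Over the 400 bp around it FLI1 was 24.0-fold over input (9.27 to 88.7), from 278 FLI1 and 4 input reads. RUNX1 had 4 reads there, 5.47-fold over input (1.02 to 29.4), an interval that left out 1, from fewer reads than the 6 that the bin rule asks for. The place was chosen by its FLI1 reads.

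The sequence at the start of Pf4 held the ETS word TTTCCGG (read on the minus strand as CCGGAAA) at chr5:91201474-91201480, with its centre 20 bp from the maximum and inside exon 1. The upstream maximum, taken as the highest point of the first called bin, lay 360 bp before the start with 96 reads over it. Over 400 bp it had 170 FLI1, 1 RUNX1 and 6 input reads, and FLI1 was 9.79-fold over input (4.40 to 27.0). Plus-strand reads there were 53 to the left and 14 to the right, and minus-strand reads were nearly even, 36 and 41. Its sequence held the ETS word CAGGAAG and, a few bases before it, ACCACA, the RUNX word on the minus strand. The choice of a second maximum at Pf4 was made after its reads had been seen.

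**Figure D2:**
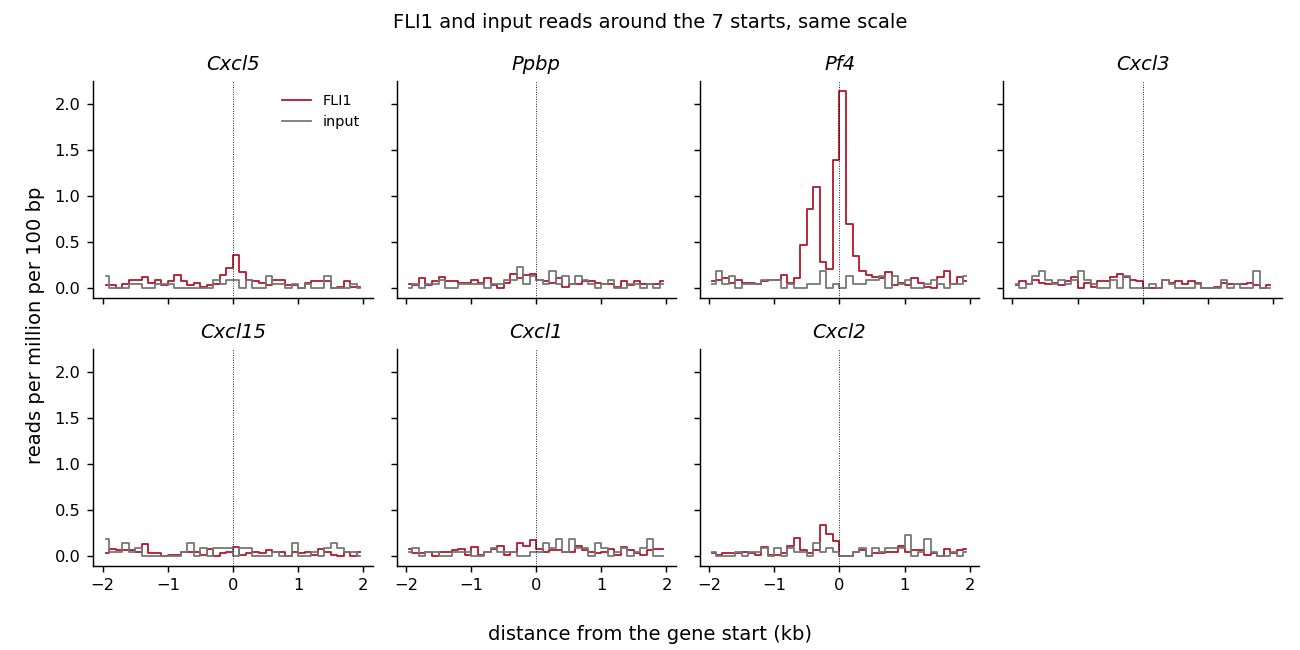
FLI1 (red) and input (grey) RPM per 100 bp within 2 kb of each of the 7 starts, on the same scale. Pf4 shows a pair of FLI1 maxima with 69 and 135 reads in their highest steps, Cxcl5 reaches 23 reads and Cxcl2 21.

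Ppbp (ENSMUSG00000029372, chr5:91197544-91199086), whose start is 3917 bp before that of Pf4, had no called FLI1 bin at its start. The bin just before that start held 36 FLI1 and 10 input reads, 1.24 times its expectation. The Ppbp window held 180 FLI1, 10 RUNX1 and 49 input reads. FLI1 was 1.27-fold over input (0.921 to 1.78) and RUNX1 1.12-fold (0.504 to 2.23), and both intervals included 1. These folds were close to the medians of all genes tested, 1.28 for FLI1 and 1.18 for RUNX1. The windows of Ppbp and Pf4 overlapped by 84 bp and shared 5 FLI1 reads.

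A called FLI1 bin lay just outside the Ppbp window. Its maximum was 2088 bp before the Ppbp start, between Cxcl5 and Ppbp and in no protein-coding gene. The bin held 69 FLI1 reads, 1 RUNX1 read and 1 input read, and was 4.81 times its expectation. With a window of 3 kb, tried after this had been seen, Ppbp had 339 FLI1 and 76 input reads, 1.54-fold (1.20 to 2.00), so that the interval no longer included 1 but the fold stayed under the limit of 2.

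The sequence upstream of Ppbp was the only one of the 4 called places to hold all the words searched except that of NF-kB. It held TTTCCGG, the ETS word on the minus strand, with its centre 15 bp before the maximum, TGAGTCA (NF-E2 and AP-1), ACCACA (RUNX), and a GATA word, AGATAA. The word AGATAA also lay 42.5 bp after the main Pf4 maximum and 32.5 bp after the highest point at Cxcl5, past the bases printed above. Among 461 stretches of 101 bases at the centres of the cluster's uncalled bins, 8.68% held an ETS word, 2.39% the NF-E2 and AP-1 word, 6.51% a RUNX word and 21.7% a GATA word (AGATAA or AGATAG, and likewise TGATAA or TGATAG).

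Cxcl5 (ENSMUSG00000029371, chr5:91188325-91190651), the neutrophil chemokine next to Ppbp, was the other gene past the limit for FLI1. Its window held 187 FLI1, 9 RUNX1 and 28 input reads. FLI1 was 2.31-fold over input (1.55 to 3.57) and RUNX1 1.76-fold (0.730 to 3.83). Its FLI1 reads were 1.04 times those of Ppbp (0.842 to 1.28), whereas its input reads were the fewest of the 7 genes. Set against the median of all gene windows in place of input, FLI1 at Cxcl5 was 1.41-fold and not called. The highest point, with 34 reads over it, lay 2 bp before the start, at the edge between a bin of 28 FLI1 reads, 1.93 times its expectation, and a bin of 45 FLI1 reads, 3.89 times its expectation and just under the limit of 4. Over the 400 bp around that point FLI1 was 3.94-fold over input (1.59 to 12.6), from 57 FLI1 and 5 input reads, a description, since the point was chosen as the highest of its window.

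A further FLI1 bin stood far from any start. Its maximum was 17046 bp before Cxcl5, in no protein-coding gene, and it held 109 FLI1, 2 RUNX1 and 6 input reads, 6.28 times its expectation. Its plus-strand reads lay to the left (40 against 4) and its minus-strand reads to the right (46 against 13). Its sequence held ACCACA, a RUNX word, and no ETS word, with 3 copies of GGAA, which 61.2% of stretches of this length in uncalled bins hold at least once.

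Cxcl3 (ENSMUSG00000029379, chr5:91215129-91217112), Cxcl1 (ENSMUSG00000029380, chr5:91320267-91322141) and Cxcl2 (ENSMUSG00000058427, chr5:91332897-91334935), which encode chemokines that draw neutrophils, were not called for FLI1 or RUNX1. Cxcl3 had 143 FLI1, 6 RUNX1 and 41 input reads, and FLI1 was 1.20-fold over input (0.846 to 1.75). Cxcl1 had 155 FLI1, 5 RUNX1 and 49 input reads, and FLI1 was 1.09-fold (0.788 to 1.54). Cxcl2 had 154 FLI1, 7 RUNX1 and 44 input reads, and FLI1 was 1.21-fold (0.860 to 1.73). All 3 intervals included 1. The highest step of 100 bp held 21 FLI1 reads at Cxcl2, from 300 to 200 bp before its start, against 11 at Cxcl1 and 10 at Cxcl3. On a smaller scale all 3 had a point of higher FLI1 reads, in bins that were not called. Over the 400 bp around the highest point of the Cxcl1 window, 63 bp before the start, FLI1 was 2.94-fold over input (1.05 to 11.4), from 34 FLI1 and 4 input reads. Around that of Cxcl3, 440 bp before the start, it was 3.22-fold (0.996 to 16.6), from 28 FLI1 and 3 input reads, and a bin 204 bp before the start held 30 FLI1 reads, 3.05 times its expectation. Around that of Cxcl2, 237 bp before the start, it was 2.71-fold (1.15 to 7.75), from 47 FLI1 and 6 input reads. These points were chosen as the highest of their windows, so such folds are a description.

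The last called FLI1 bin was the nearest to Cxcl3, 3787 bp after its start and past its end. It held 52 FLI1, 2 RUNX1 and 3 input reads, 4.32 times its expectation, and it was lost when the bins were moved by 200 bp. The bin before it held 76 FLI1 and 8 input reads, 3.28 times its expectation, and was not called. The sequence at this maximum held 4 copies of GGAA, but none of the ETS, RUNX, NF-E2 or GATA words.

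Cxcl15 (ENSMUSG00000029375, chr5:91223560-91232093), the lung chemokine, had the fewest FLI1 reads of the 7 genes. Its window held 104 FLI1, 7 RUNX1 and 42 input reads, and FLI1 was 0.855-fold over input (0.592 to 1.26). Of the 50-base sequences starting in this window 84.2% occurred once in the genome, the lowest share of the 7, against 93.4% to 100% at the others. Reads from repeated sequence were not kept by the authors. Counted per start position of unique sequence, FLI1 at Cxcl15 was 0.794-fold over input (0.550 to 1.17). This scaling used 50-base sequences for FLI1 and 34-base sequences for input. A start with a unique 34-base sequence also has a unique 50-base sequence, so the scaling cannot raise a FLI1 fold. The part of repeated sequence in the low Cxcl15 value was therefore not tested.

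Set side by side, the order of FLI1 folds was Pf4, Cxcl5, Ppbp, Cxcl2, Cxcl3, Cxcl1 and Cxcl15. In FLI1 reads Pf4 exceeded each of the other genes, by 4.56-fold over Cxcl3 (3.80 to 5.50) and 6.27-fold over Cxcl15 (5.09 to 7.79), and Cxcl5 had 0.287 of its reads (0.242 to 0.338). Among the others, Cxcl5 and Ppbp, Ppbp and Cxcl2, Cxcl2 and Cxcl3, and Cxcl3 and Cxcl1 had intervals of their ratio that included 1, and Cxcl15 had 0.671 of the reads of Cxcl1 (0.518 to 0.866). Of pairs farther apart in that order, Cxcl5 had 1.31 times the reads of Cxcl3 (1.05 to 1.64) and Ppbp 1.26 times (1.00 to 1.58), with the lower bound just above 1, and each of the other genes had more FLI1 reads than Cxcl15 with an interval that left out 1. All 21 pairs were compared, with no adjustment of the intervals. These ratios are of reads as counted, not scaled to the share of unique sequence. That share was lowest at Cxcl15, 84.2% of 50-base sequences, and its part in the ratios to Cxcl15 was not tested.

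By the gene rule, at least 2-fold over input with a lower bound above 1, FLI1 was called at 2 of 7 genes, Pf4 and Cxcl5, beside 25.5% of the 21574 genes tested. That count was near the share of all genes and is not a result about the 7 genes as a list. RUNX1 was called at 0 of 7, beside 14.1% of the genes tested. The median FLI1 fold of the 7 genes was 1.21 and the median RUNX1 fold 0.912.

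**Figure D3:**
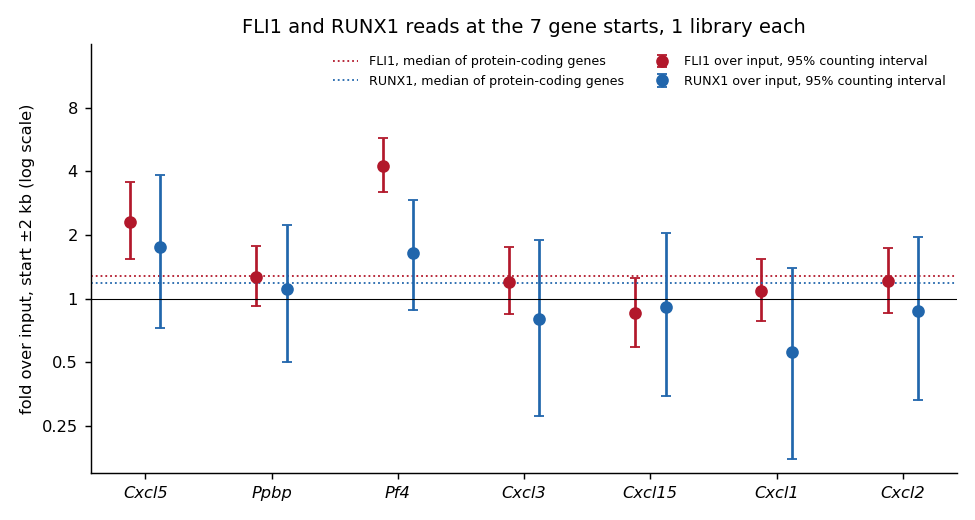
Fold over input within 2 kb of each start, on a log scale, for FLI1 (red) and RUNX1 (blue), 1 library each, with 95% counting intervals and the medians of all genes tested (dotted). FLI1 is highest at Pf4, 4.25, and every RUNX1 interval includes 1.

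The low number of reads in the RUNX1 file limited the precision of every RUNX1 value. With 5 to 16 RUNX1 reads in each window, between 12 reads at Cxcl5 and 20 at Pf4 would have been needed for a call, which is 2.00 to 2.35-fold over input, a bound set mostly by the limit of 2 in the rule itself. The counting intervals of RUNX1 were wide, as at Pf4, where they ran from 0.881 to 2.93. FLI1 reads thinned at random to the RUNX1 depth left 42 reads at Pf4, 4.34-fold (2.82 to 6.63), and 12 at Cxcl5, 2.35-fold (1.09 to 4.76), and both were still called. Of the called bins, those upstream of Cxcl5 and of Ppbp were lost in the thinned reads, those at Pf4 and downstream of Cxcl3 stayed, and a bin at the Cxcl5 start was gained, for 5 FLI1 bins in all. The lost bins had held more reads than the one downstream of Cxcl3, and this was 1 random draw. Within 1 kb of the Pf4 start RUNX1 had 11 reads and input 26, 2.32-fold (1.03 to 4.85), which the rule calls. The bins with most RUNX1 reads, 5 each, lay 5400 bp before Cxcl5, at 8.05 times expectation, and 29342 bp before Cxcl1, at 4.68 times. Beside the first of these another bin held 4, at 6.44 times expectation, and their FLI1 reads were 16 and 12. The bin at the Pf4 start held 4 RUNX1 reads, 4.34 times its expectation.

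FLI1 was also uneven along the cluster. From Cxcl5 to the end of Cxcl15, over 43769 bp, 2295 FLI1 and 458 input reads gave 1.73-fold (1.57 to 1.92). Without its 5 called bins, a value added after the data had been seen, it was 1.31-fold (1.18 to 1.46). The 20 kb before Cxcl5 gave 1.24-fold (1.05 to 1.46), and 1.07-fold (0.904 to 1.27) without their called bin. From Cxcl1 to Cxcl2, over 14669 bp, 523 FLI1 and 153 input reads gave 1.18-fold (0.984 to 1.42). The 88173 bp between Cxcl15 and Cxcl1 gave 1.09-fold (1.01 to 1.19). The 20 kb after Cxcl2 gave 0.938-fold (0.727 to 1.22). Of the 50-base sequences in the gap 77.9% occurred once in the genome, and of those after Cxcl2 61.2%. The part of repeated sequence in their low counts was not tested. After Cxcl2, the bins of chr5:91345125-91349124 held 0 reads in each library, although 76.25% to 100% of their 50-base sequences occurred once. Why these bins were empty was not tested. RUNX1 over input was 1.43-fold (1.02 to 1.96) in the 20 kb before Cxcl5 and 1.14-fold (1.01 to 1.28) over the whole cluster. In each of the other stretches its interval included 1.

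The stretches of 120 bases before the 5 starts without a call show the words that lay there without a called FLI1 bin. The stretch of Cxcl1 includes the highest point of its window. They are mm9, plus strand, with capitals as above.
Ppbp, chr5:91197424-91197543: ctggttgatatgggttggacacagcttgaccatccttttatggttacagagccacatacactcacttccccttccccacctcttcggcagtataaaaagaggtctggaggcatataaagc
Cxcl3, chr5:91215009-91215128: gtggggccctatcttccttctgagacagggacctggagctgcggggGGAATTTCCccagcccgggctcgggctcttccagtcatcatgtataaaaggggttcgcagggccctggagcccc
Cxcl15, chr5:91223440-91223559: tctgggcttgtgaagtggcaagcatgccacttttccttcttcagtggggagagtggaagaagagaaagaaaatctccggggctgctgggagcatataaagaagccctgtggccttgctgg
Cxcl1, chr5:91320147-91320266: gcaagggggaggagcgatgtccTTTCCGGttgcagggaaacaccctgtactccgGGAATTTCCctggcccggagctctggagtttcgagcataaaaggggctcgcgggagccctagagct
Cxcl2, chr5:91332777-91332896: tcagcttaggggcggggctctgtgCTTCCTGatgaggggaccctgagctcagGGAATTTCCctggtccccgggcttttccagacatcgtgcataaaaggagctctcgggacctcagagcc

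In the 300 bases before the start, Cxcl1 and Cxcl2 alone of the 7 genes held an ETS word, starting 98 and 96 bases before it, and 29.1% of 22361 promoters of that length held one. A RUNX word was in 0 of 7, against 21.3% of promoters, and a GATA word in Cxcl3 alone, against 30.2%. Both ETS words at Pf4 lay outside this window, one past its start and one more than 300 bases before it. At Cxcl5 an ETS word, TTTCCTG at chr5:91188326-91188332, likewise lay just past the start, with its centre 6 bp from the highest point. The NF-kB word, added after these sequences had been seen, was in Cxcl5, Cxcl3, Cxcl1 and Cxcl2 and not in Pf4, Ppbp or Cxcl15. Of the 22361 promoters 83 (0.371%) held this word. Since the word was picked from the same promoters, that share is no test of it. At Cxcl3, Cxcl1 and Cxcl2 it began 74, 66 and 68 bases before the start, and at Cxcl5 28 bases before it. NF-kB is the factor that inflammatory signals bring to such promoters. Words are a description of the letters and were not tested as binding sites.

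Other chemokine genes were read from lists, beside the 25.5% of all genes tested that were called for FLI1 and the 14.1% called for RUNX1. Of 8 other CXC chemokine genes 0 were called for FLI1 or RUNX1, with FLI1 folds of 0.691 to 1.13. One of them, Cxcl11, is annotated as a processed transcript and is not among the protein-coding genes of those shares. Of 9 receptors 1 was called for FLI1, Darc, the chemokine receptor of red cells, at 2.25-fold (1.71 to 3.01), and 0 for RUNX1. Of 4 platelet CC chemokine genes 0 were called for FLI1 and 1 for RUNX1, Ccl3, at 2.04-fold (1.07 to 3.69). Of 10 genes that flank the cluster 0 were called for either factor.

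Among 12 genes that mark MK, 7 were called for FLI1, beside 25.5% of all genes tested, and 1 for RUNX1, beside 14.1%. The list includes Pf4 and Ppbp. The highest FLI1 folds were those of Itga2b (integrin alpha IIb) at 5.50 (4.06 to 7.64), Pf4 at 4.25, Gp5 (a platelet glycoprotein) at 4.2 (3.01 to 6.01) and Gp1ba (the von Willebrand factor receptor) at 2.71 (2.06 to 3.63), and Gp9 was called for RUNX1 at 2.37 (1.39 to 3.94). Of 8 granulocyte and macrophage genes 1 was called for FLI1, Mpo, at 2.44 (1.68 to 3.65), and 0 for RUNX1, neither count above the same shares. For 5 erythroid, 4 lymphoid and 4 hepatocyte genes 0 were called for either factor. Alb and Afp of the hepatocyte list are also among the genes that flank the cluster. These values are of reads at starts, and RNA was not measured here.

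**Figure D4:**
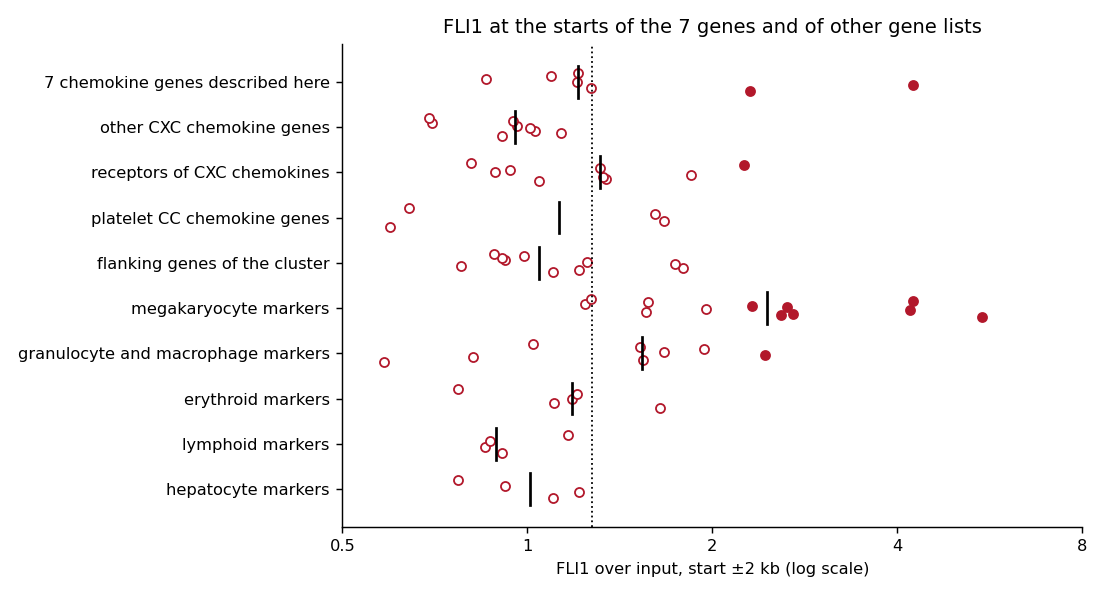
FLI1 fold over input within 2 kb of the start, on a log scale, for each gene of the 7 and of the other lists, with filled points where the rule called the gene, bars at each list's median and the median of all genes tested as a dotted line. Of the 12 MK genes 7 are filled, and of the 8 other CXC chemokine genes 0.

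The genes whose pair of FLI1 and RUNX1 folds was most like that of Pf4 were 1810037I17Rik, Adam17 and Txnl4b, at 0.01, 0.02 and 0.04 on the log2 scale. Those most like Ppbp were Smap1, at a distance of 0, 4930546C10Rik and 8430408G22Rik, both at 0.01. Each distance rested on 2 values a gene.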

How the data were processed

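The authors mapped the reads to mm9 with Bowtie (version not given in the sources used here), removed reads with several matches and repeated reads, and deposited where each remaining read lies and on which strand, with no signal or normalized value. In the input file 3.24% of reads repeated a position, and 1 read per position and strand was kept. Of plus-strand FLI1 and RUNX1 reads in the cluster, 96.5% and 97.2% matched the reference with at most 2 mismatches. Each read was placed 75 bp downstream of its 5′ end and counted within 2 kb of the 5′ end of each GENCODE M1 gene record, and in bins of 400 bp. Counts were scaled to library depth, and ratios have exact conditional binomial 95% intervals. A gene was called at a fold of at least 2, a lower bound above 1 and at least 5 input reads. The maximum of a region is the base covered by most reads extended to 150 bp. With 1 library per antibody no p-value was computed. Genes named from a list were those called by either factor, up to 4 per list by highest fold, with Gp9 added as the only one of its list called for RUNX1, and the genes most alike were the 3 nearest in log2 fold for Pf4 and Ppbp. The 7 genes, the lists and the rules were chosen with earlier results of these data known. Counting and calling were tested on simulated data, where intervals of 1 group at the RUNX1 depth held the true fold slightly less often than their nominal level. The limit for passing was lowered after this had been seen. MACS and SICER, which the labels name, were not used. Alternatives were read position, window, scaling, input handling, depth, limits, start site and unique sequence. Python 3 with numpy, scipy, pandas and numba was used.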

Additional observations from a re-analysis of the deposited data

How the results depend on the processing

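No library was replicated, so each value rests on 1 library and counting error is the only error that could be measured. Of 126 alternative values of the folds of the 7 genes, 119 stayed within the counting interval of the reported value, 7 moved beyond it and 0 changed direction among called genes. FLI1 at Pf4 ranged from 2.57 to 7.35-fold and was called under every gene alternative. FLI1 was called at 1 gene, Pf4, in place of 2 without input, at a fold of at least 3, and with RUNX1 as the reference, the last chosen after seeing the data. RUNX1 was called at 1 gene, Pf4, in place of 0 within 1 kb of the start, with scaling by low 10-kb bins, and without input. FLI1 bins numbered 10 with the genome-wide rate alone, 10 at a bin fold of at least 3 and 3 at a fold of at least 6. They numbered 8 with repeated input positions kept and 4 when bins were moved by 200 bp. At a fold of at least 6 the places upstream of Ppbp and downstream of Cxcl3 were lost. RUNX1 bins numbered 1 when bins were moved by 200 bp, a bin of 6 RUNX1 reads before Cxcl5. The cause of these changes was not tested. No paired analysis was possible because each antibody has 1 library.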
